A study of Saccharomyces cerevisiae with 16 samples.

Results

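Transcript levels of budding yeast (Saccharomyces cerevisiae) were compared between the 2 unmutated reference groups of the series that are both labelled wild type, named control and WT, each with 2 libraries from 2 biological replicates (replicates 2 and 3). Control is the untreated partner of the serine-treated cells of the series, and WT is the partner of the CK2 group, a mutant. Both groups carry the genotype label wt, and no label names a strain, a mating type or a deletion for either. All cells were grown in YPD, a rich glucose medium, to an OD600 between 0.7 and 1.0. The series holds 16 libraries, and its other groups (serine, CK2, the reference strain YBL574 and the histone H3 mutant H3T11A) enter below only beside a result of control and WT. The members are the genes with an RPKM, reads per length of gene and per library size, of 1 or more in at least 2 of the 4 control and WT libraries. They were 6422 of the 7125 genes listed. The values that decided membership next to the threshold were 1.00 for the leucine tRNA gene tL(UAA)N, just inside, and 0.999 for YHR213W, just outside. Of the members, 131 passed through the WT libraries only and 42 through the control libraries only. The 131 included HMRA1, TIR1, BSC1, ASG7, AIF1, PDR18, YNR071C, COS12, ANS1, RNP1, PGU1, AAC3, YBR012C and tL(UAG)L1, named below. The 42 included SUL1, URA3, HIS3, HMLALPHA1, MATALPHA1, PAU1, PAU14 and DAL4. Such genes are members only through the group where they were high, so their calls add no support of their own. Control and WT belong to separate sub-experiments, so strain, culture and batch cannot be told apart in any difference given here.

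Read totals recovered from the steps between low RPKM values ran from 11737363 to 12351035, and 3 reads, taken as the floor of a library, correspond to an RPKM between 0.243 and 0.256 in a gene of 1 kb. Floors and counting intervals cover counting error only. The 2 control libraries correlated at r = 0.9928 and the 2 WT libraries at r = 0.9912 over 6422 genes on the log2(RPKM + 1) scale, and replicates differed by an SD of 0.252 and 0.261 on that scale. The genome of the mitochondrion took 11.8% and 13.6% of the RPKM-times-length sum in control and 6.55% and 5.30% in WT, and the part of this share in the differences below was not tested. The spread behind every SE and p-value was pooled over the replicates of all 6 groups of the series. Replicates of CK2 and of H3T11A differed more, by an SD of 0.47 and 0.54. Since nothing in the labels says that replicates came from separate cultures, p-values measure only this spread between replicate samples, which may be technical.

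The transcriptome of this yeast is organised in regulons, sets of genes that share a transcription factor and answer to 1 nutrient. Gcn4 and Bas1 act on amino acid and purine genes, Cbf1 with Met4 on sulfur genes, GATA factors on nitrogen genes, Zap1 on zinc genes, and Ino2 with Ino4 on phospholipid genes. Laboratory strains also differ in marker genes, in mating type and in the genes close to chromosome ends. Haploid a cells express receptors and pheromone genes that alpha cells lack, and the reverse holds for alpha cells.

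Control and WT differed across much of the transcriptome. By limma with Benjamini-Hochberg adjustment over 6422 genes, 3970 genes (61.8%) passed an adjusted p of 0.05, of which 1490 (23.2%) were higher in control and 2480 (38.6%) higher in WT. Both control values lay above or below both WT values in 5580 genes (86.9%). Levels of genes are given below as RPKM, replicate 2 before replicate 3. Every log2 fold change (control minus WT) is on the log2(RPKM + 1) scale, which understates the change of low genes, and is given with its SE, while folds are ratios of mean RPKM. A difference of 2-fold or more was called in 1580 genes, 536 higher in control and 1044 higher in WT, and a log2 fold change of 3 or more in size in 104. The median over all genes was -0.17, and it became -0.02 with median-of-ratios scaling, under which 3854 genes were called and 48.9% of the calls were higher in control, against 37.5% as deposited. The direction of small changes therefore depends on the scaling. The 23.2% and 38.6% of all genes are the shares to set beside every count of a list below.

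Named genes at the ends of the range differed by orders of magnitude. INO1, which makes inositol phosphate from glucose 6-phosphate, measured 7698 and 7583 in control and 11.6 and 9.45 in WT, 726-fold higher in control (log2 fold change 9.38 ± 0.14, adjusted p = 1.48e-09, limma). MF(ALPHA)1, the main alpha-factor pheromone gene, measured 1491 and 1379 in control and 2.64 and 2.44 in WT (565-fold). In the opposite direction, MFA2, an a-factor gene, measured 2.87 and 4.37 in control and 899 and 936 in WT (253-fold higher in WT). The other genes with the largest excess in control were ULI1, GIT1 (glycerophosphoinositol permease), ZRT1 (zinc uptake), SUL1 (sulfate uptake), URA3, GAP1 (general amino acid permease), PUT4 (proline permease), SAM2 (S-adenosylmethionine synthetase), HMX1 (heme oxygenase), ZPS1, DAL80, YOR387C and YMR315W-A. The other genes with the largest excess in WT were HMRA1, CHA1, AGA2, MFA1, STE2, TAT1, PTR2, BSC1, TIR1, FUI1, BAR1, YBR012C and the tRNA genes tN(GUU)P and tL(UAG)L1. The libraries of the 2 groups did not overlap in these 30 genes, as the rule that chose them required, nor in 86.9% of all members.

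**Figure D1:**
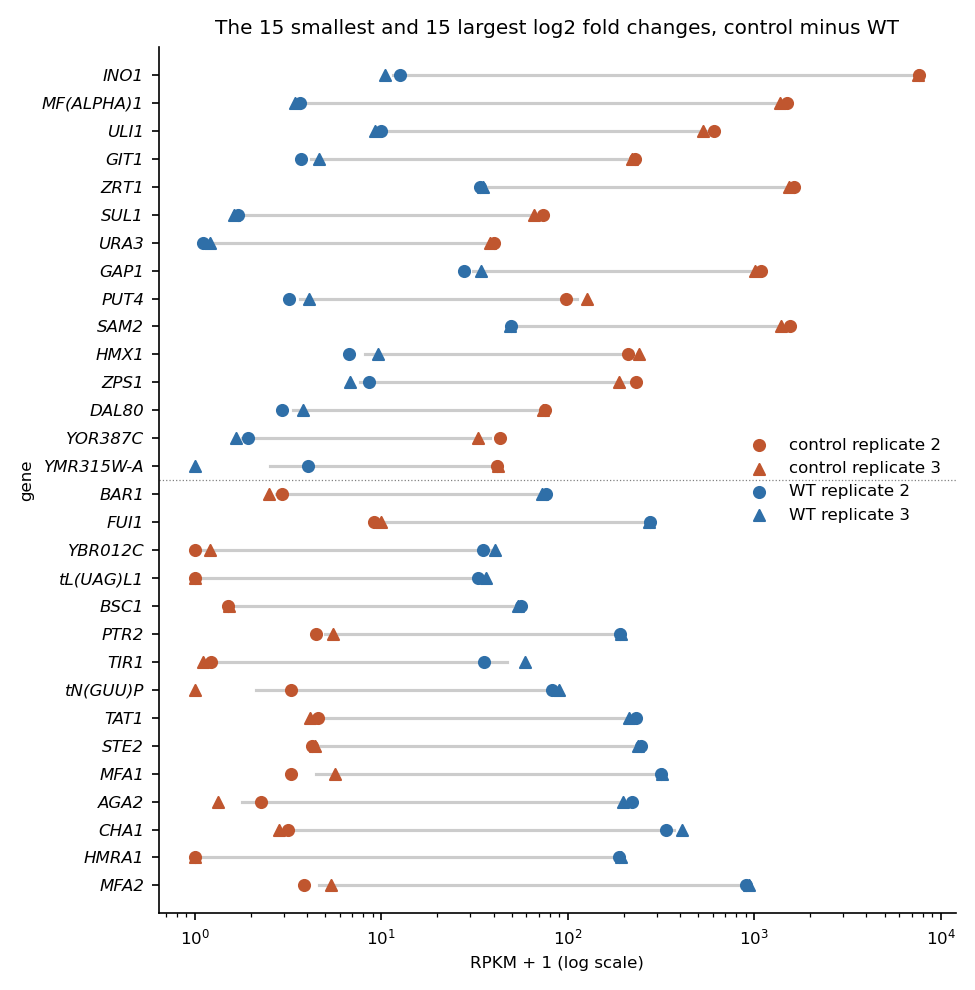
RPKM + 1 (log axis) of the 15 genes with the largest and the 15 with the smallest log2 fold change between control and WT, 1 point per library (2 control, 2 WT). INO1 sits at 7698 and 7583 in control and 11.6 and 9.45 in WT, and MFA2 at 2.87 and 4.37 in control and 899 and 936 in WT.

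The genes specific to a mating type differed in opposite directions. All 7 a-specific genes tested were higher in WT (median log2 fold change -5.80, against -0.17 over all genes), and all 3 alpha-specific genes tested were higher in control (median 2.72). The labels give no mating type, and fewer cells of a type and less RNA per cell cannot be told apart in bulk RNA. Ste12, the factor of the pheromone response, binds TGAAACA, and the motif (both strands) lay 400 to 101 bases before the start codon in 6 of 7 a-specific genes (85.7%) and in 7.61% of 5822 promoters. The promoters of MFA2 (chrXIV:352014-352313, + strand) and STE2 (chrVI:82180-82479, + strand), from the R64 genome, are shown because these genes carried 2 of the largest excesses in WT. Capitals mark TGAAACA or its reverse complement.
MFA2: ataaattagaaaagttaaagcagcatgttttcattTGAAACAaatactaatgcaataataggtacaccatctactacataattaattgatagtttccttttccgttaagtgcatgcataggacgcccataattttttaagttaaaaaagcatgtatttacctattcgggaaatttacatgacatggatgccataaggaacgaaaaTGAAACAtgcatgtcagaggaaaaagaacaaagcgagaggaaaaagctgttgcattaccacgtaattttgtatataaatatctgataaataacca
STE2: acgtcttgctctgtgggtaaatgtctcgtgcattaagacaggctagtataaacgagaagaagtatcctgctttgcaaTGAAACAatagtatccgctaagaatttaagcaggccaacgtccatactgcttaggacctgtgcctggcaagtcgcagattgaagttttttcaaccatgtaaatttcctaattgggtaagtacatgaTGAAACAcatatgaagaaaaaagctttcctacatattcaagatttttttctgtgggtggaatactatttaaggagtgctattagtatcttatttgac

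STE2, the receptor for alpha-factor, measured 3.24 and 3.42 in control and 245 and 237 in WT (log2 fold change -5.80 ± 0.10, adjusted p = 1.48e-09). MFA1, the second a-factor gene, measured 2.27 and 4.61 in control and 314 and 321 in WT. AGA2, an agglutinin subunit of a cells, measured 1.27 and 0.323 in control against 219 and 198 in WT. All 7 genes of the list, including BAR1, the protease that degrades alpha-factor (1.95 and 1.50 in control against 75.3 and 72.0 in WT), STE6, the a-factor exporter (6.45 and 6.78 in control against 86.1 and 81.8 in WT), and ASG7 (0.534 and 0.676 in control against 26.5 and 26.3 in WT), thus lay far above control in WT. On the alpha side, STE3, the receptor for a-factor, measured 45.2 and 47.0 in control and 4.83 and 7.74 in WT (log2 fold change 2.72 ± 0.20). SAG1, the agglutinin of alpha cells, measured 18.9 and 15.4 in control and 10.3 and 12.4 in WT, a smaller difference (log2 fold change 0.55 ± 0.16, adjusted p = 0.0156) that was lost without control replicate 2 (0.110) or WT replicate 2 (0.109). MF(ALPHA)2, a minor alpha-factor gene, was not tested (2.78 and 0.704 in control and 0.453 and 0.669 in WT).

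The cassettes of the mating-type locus followed. HMRA1, the a1 gene of the cassette HMR, had no read in either control library and 187 and 193 RPKM in WT. It was at least 365-fold higher in WT against a floor of 3 reads a library. HMLALPHA1 measured 15.3 and 14.7 in control and 0.311 and 0.153 in WT (ratio 64.7, 95% counting interval 21.8 to 317). Chosen after their values were seen, MATALPHA1 measured 15.6 and 16.3 in control and 0.934 and 0.307 in WT, and MATALPHA2 57.2 and 62.0 in control against 28.8 and 29.3 in WT. These cassettes hold near-identical sequence, so the split of reads among MAT, HML and HMR is uncertain. The reference holds the alpha genes at MAT, so RNA of an a1 gene at MAT may be counted on HMRA1. Silencing at HMR therefore cannot be read from its values. The 2 partner groups did not share the pattern of their references in the same way: MF(ALPHA)1 measured 1221 and 1282 in serine and 385 and 340 in CK2, and MFA2 measured 2.03 and 4.15 in serine and 4.88 and 3.91 in CK2, so both lay on the control side. YBL574 lay on the WT side, with 3.96 and 5.21 for MF(ALPHA)1 and 1146 and 1215 for MFA2.

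The pheromone pathway shared by both types did not move as a whole. Of 23 genes tested, 11 (47.8%) were higher in WT, 5 (21.7%) higher in control and 7 did not pass (median -0.32). Over all genes tested these shares were 38.6% and 23.2%. Log2 fold changes ran from -2.25 to 0.96, and the 4 genes named next had the largest changes called. FAR1, which arrests the cell cycle in pheromone, measured 18.6 and 15.8 in control and 86.2 and 84.9 in WT (log2 fold change -2.25 ± 0.11). FUS1, needed for cell fusion, measured 1.69 and 1.60 in control against 10.1 and 11.9 in WT, SST2, which turns the signal off, 11.8 and 13.6 in control against 45.2 and 46.3 in WT, and STE12, the factor itself, 13.2 ± 0.368 (mean ± SD, n = 2) in control against 46.9 and 44.3 in WT, each higher in WT in both libraries. TGAAACA lay in 15 of 23 of these promoters (65.2%).

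The genes of the marker list, which also holds the permease gene CAN1 and the endonuclease gene HO, differed in both directions. Of 10 genes tested, 5 were higher in control, 4 higher in WT and CAN1, the arginine permease, did not pass (118 and 108 in control against 128 and 121 in WT). HIS3, a histidine synthesis enzyme, measured 20.9 ± 1.16 (mean ± SD, n = 2) in control and 0 and 0.122 in WT, where 1 read was recovered in all (ratio 339, 95% counting interval 60.5 to 13444). URA3, an enzyme of uracil synthesis, measured 39.1 and 37.4 in control and 0.102 and 0.201 in WT with 3 reads recovered (ratio 251, 85.7 to 1222). The neighbours of these genes did not show such a gap: MRM1 measured 36.2 and 36.0 in control against 36.3 and 34.6 in WT, DED1 226 and 222 in control against 237 and 232 in WT beside HIS3, and TIM9 119 and 118 in control against 70.3 and 69.3 in WT beside URA3 (neighbours chosen after their values were seen). In CK2, the partner of WT, HIS3 was likewise at 0.108 and 0 and URA3 at 0 and 0. Serine had 26.6 and 24.9 for HIS3 and 32.0 and 32.6 for URA3, and YBL574 had 213 and 189 for HIS3 and 278 and 379 for URA3.

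MET17, whose loss makes cells need methionine, was present in all 4 libraries (978 and 866 in control, 60.5 and 66.6 in WT), as were LEU2 (113 and 121 in control against 34.9 and 40.6 in WT) and LYS2 (65.6 and 59.9 in control against 32.3 and 30.4 in WT), all 3 higher in control. TRP1, of tryptophan synthesis, measured 8.97 and 8.96 in control and 61.9 and 54.7 in WT, ADE2, of adenine synthesis, 20.4 and 17.9 in control against 124 and 110 in WT, and HO, the mating-type switching endonuclease, 7.21 and 5.37 in control against 37.5 and 29.0 in WT. These 3 were higher in WT in both libraries. HIS4 measured 138 and 125 in control against 238 and 210 in WT (log2 fold change -0.77 ± 0.22, adjusted p = 0.0140), a call lost without control replicate 3 (0.0780) or WT replicate 2 (0.0808). The labels say nothing of the marker genes of either strain.

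In all, 14 genes lay at or under 3 reads in both libraries of a group while the other group was at least 10 floors up. The 10 at the floor in control included AIF1, a homologue of apoptosis-inducing factor (0 and 0 in control, 25.0 and 25.4 in WT, at least 113-fold higher in WT), PDR18, a drug transporter (at least 23.1-fold), YNR071C (at least 23.1-fold) and COS12 (at least 15.9-fold). TIR1, a cell wall mannoprotein of low-oxygen cells, measured 0.220 and 0.111 in control against 34.7 and 58.0 in WT (ratio 280, 95.4 to 1359), YMR230W-A 1.33 and 1.35 in control against 22.6 and 18.8 in WT (ratio 15.4), ANS1 0.175 and 0.532 in control against 10.4 and 10.3 in WT (ratio 29.4), RNP1 0.336 and 0.227 in control against 8.87 and 7.88 in WT (ratio 29.7) and PGU1, a pectin-degrading enzyme, 0.0770 and 0.235 in control against 2.50 and 2.91 in WT (ratio 17.3). The 4 at the floor in WT were URA3, HIS3, HMLALPHA1 and PAU1 (19.0 and 19.7 in control, 0.453 and 0 in WT).

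Of these, PDR18, YNR071C and AIF1 lie on chromosome XIV between positions 765375 and 778738, near its right end (R64 coordinates). PDR18, YNR071C and AIF1 had no read in either control library and were present in both WT libraries. The other genes of this stretch were chosen after their values were seen. HXT17, a hexose transporter gene between them, had no read in control and 0.339 and 0.143 in WT and was not tested, and MAN2, next to it, measured 0.780 and 1.30 in control against 4.08 and 4.08 in WT. Outward of AIF1, COS10 measured 89.5 and 82.6 in control and 25.3 and 19.4 in WT, on the other side of zero, and inward BSC5, also chosen after its values were seen, measured 10.6 and 12.6 in control against 20.5 and 19.8 in WT. In serine PDR18, YNR071C and AIF1 were also at or near 0, with AIF1 at 0 and 0 and PDR18 at 0 and 0.0200. AIF1 measured 20.4 and 22.9 in CK2 and 25.5 and 24.1 in YBL574.

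**Figure D2:**
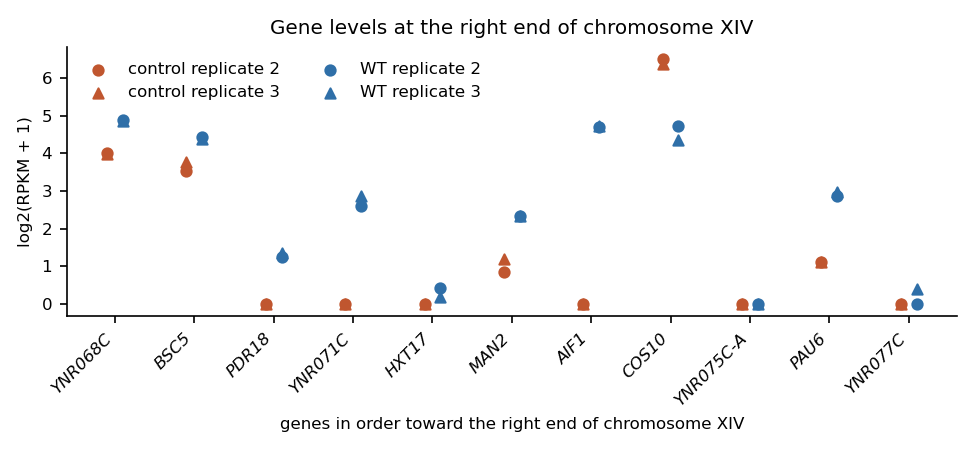
Expression, as log2(RPKM + 1), of the genes in order along the right end of chromosome XIV, 1 point per control and WT library. PDR18, YNR071C, HXT17 and AIF1 are at 0 in both control libraries, and AIF1 is at 25.0 and 25.4 RPKM in WT.

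Inositol and phospholipid synthesis held the gene with the largest difference, INO1, and most of its other genes were higher in control too. Of 17 genes, 13 were higher in control, 2 higher in WT and 2 did not pass (median log2 fold change 1.31). Ino2 and Ino4 bind CATGTG, a motif that was added to the search after the values were seen. It lay in 12 of the 17 promoters (70.6%), on either strand, and in 9.22% of all. INO1 (chrX:136034-136333, - strand, R64) and OPI3 (chrX:573036-573335, - strand) are shown with the motif in capitals, since both carry 2 matches, at 243 and 178 bases before the start codon in INO1 and at 212 and 148 in OPI3.
INO1: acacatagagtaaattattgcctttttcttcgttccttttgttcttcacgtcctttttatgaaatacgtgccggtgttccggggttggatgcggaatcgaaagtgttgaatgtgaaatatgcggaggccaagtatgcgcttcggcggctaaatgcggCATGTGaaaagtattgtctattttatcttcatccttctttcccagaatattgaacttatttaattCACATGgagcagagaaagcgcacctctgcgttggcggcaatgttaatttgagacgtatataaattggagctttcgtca
OPI3: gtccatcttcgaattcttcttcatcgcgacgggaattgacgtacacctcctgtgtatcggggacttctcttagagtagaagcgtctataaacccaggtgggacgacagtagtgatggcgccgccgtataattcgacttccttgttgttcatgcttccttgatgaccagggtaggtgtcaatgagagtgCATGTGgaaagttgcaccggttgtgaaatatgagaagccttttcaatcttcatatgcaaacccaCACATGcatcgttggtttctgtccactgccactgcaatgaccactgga

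ITR1, the inositol transporter, measured 2566 and 2500 in control and 173 and 150 in WT (log2 fold change 3.96 ± 0.20, 15.6-fold). OPI3, which methylates phosphatidylethanolamine on the way to phosphatidylcholine, measured 1042 and 985 in control against 110 and 112 in WT (log2 fold change 3.17 ± 0.32), and CHO1, the phosphatidylserine synthase, 495 and 483 in control against 96.7 and 92.9 in WT. The genes of the factors were higher in control as well (chosen after their values were seen), INO2 at 61.8 and 66.3 in control against 26.0 and 24.5 in WT and INO4 at 85.4 and 78.7 in control against 22.9 and 17.4 in WT. PIS1, the phosphatidylinositol synthase, went the other way (143 and 124 in control and 209 and 207 in WT, named after its values were seen). In serine, INO1 measured 3874 and 4527 and in CK2 29.0 and 29.0, so the gap was also present between the partner groups.

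Sulfate assimilation and methionine genes were mostly higher in control: 21 of 27, with 3 higher in WT and 3 not past the threshold (median 1.79). CACGTG, bound by Cbf1 and by Pho4, lay in 15 of the 27 promoters (55.6%) and in 4.57% of all. The promoter of MET17 (chrXII:732142-732441, + strand, R64), the enzyme that builds homocysteine from sulfide, is shown with it in capitals.
MET17: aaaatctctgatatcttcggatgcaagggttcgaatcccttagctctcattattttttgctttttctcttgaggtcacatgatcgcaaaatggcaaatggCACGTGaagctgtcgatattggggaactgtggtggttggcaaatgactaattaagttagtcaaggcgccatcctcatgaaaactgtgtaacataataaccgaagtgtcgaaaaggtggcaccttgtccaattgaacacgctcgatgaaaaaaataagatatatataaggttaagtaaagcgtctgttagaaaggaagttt

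SUL1, a sulfate permease that passed the filter through control only, measured 72.2 and 65.2 in control and 0.701 and 0.628 in WT (log2 fold change 5.39 ± 0.11, 103-fold). SUL2, the other sulfate permease, measured 137 and 133 in control against 6.07 and 7.94 in WT, so both sulfate permease genes were higher in control. MET17 stood at 978 and 866 in control against 60.5 and 66.6 in WT (log2 fold change 3.84 ± 0.25, 14.5-fold). SAM2, one of 2 genes for S-adenosylmethionine synthetase, measured 1548 and 1392 in control against 48.5 and 48.2 in WT, whereas its near-identical partner SAM1 did not pass (193 and 178 in control against 244 and 214 in WT), and reads may be shared between them. Among the genes of the SESAME complex, a set of metabolic enzymes that phosphorylates histone H3 threonine 11, 4 of 6 were higher in control (median 1.03). ACS2, acetyl-CoA synthetase, measured 297 and 288 in control against 106 and 110 in WT, SER33, of serine synthesis, 148 and 139 in control against 61.8 and 64.1 in WT, and CDC19, pyruvate kinase, 7772 and 6878 in control against 3970 and 4006 in WT, whose adjusted p of 0.00878 became 0.0543 without control replicate 2. SHM2, serine hydroxymethyltransferase, was higher in WT (283 and 274 in control against 662 and 556 in WT), with an adjusted p of 0.00713 that became 0.0503 without WT replicate 2.

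Genes for nitrogen use moved in both directions. Of 24 genes under nitrogen catabolite repression, 11 were higher in control, 3 higher in WT and 10 did not pass (median 0.10). GATAAG, the GATA-factor motif, lay in 18 of their promoters (75.0%) and in 14.0% of all. It did not separate the genes higher in control. It also lay before DAL5, DUR3 and GLN3, which did not pass, and before DAL1 and GLT1, higher in WT. PUT4 and GDH1, higher in control, had no match in the window. Shown with it in capitals, on either strand, are GAP1 (chrXI:514663-514962, + strand, R64) and DAL80 (chrXI:506498-506797, + strand), each with 3 matches.
GAP1: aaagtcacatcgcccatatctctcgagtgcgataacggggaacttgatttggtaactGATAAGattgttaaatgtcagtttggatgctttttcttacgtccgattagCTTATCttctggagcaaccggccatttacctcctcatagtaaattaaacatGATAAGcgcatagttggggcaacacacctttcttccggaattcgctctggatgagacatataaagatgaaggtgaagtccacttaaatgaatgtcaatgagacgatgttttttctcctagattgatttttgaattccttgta
DAL80: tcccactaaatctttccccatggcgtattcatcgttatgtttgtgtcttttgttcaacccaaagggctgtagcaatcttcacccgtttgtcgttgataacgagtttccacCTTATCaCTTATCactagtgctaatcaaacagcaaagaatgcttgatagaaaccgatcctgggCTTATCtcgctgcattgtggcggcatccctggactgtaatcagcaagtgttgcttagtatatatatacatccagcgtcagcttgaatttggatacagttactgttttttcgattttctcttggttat

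GAP1 measured 1084 and 1010 in control and 26.8 and 33.2 in WT (log2 fold change 5.09 ± 0.40, adjusted p = 1.15e-05, 34.9-fold). PUT4 measured 97.4 and 126 in control and 2.18 and 3.09 in WT, and PUT1, the first enzyme of proline breakdown, 68.2 and 96.4 in control against 8.32 and 14.0 in WT. DAL80, a repressor of the same genes, was itself higher in control (74.6 and 72.7 in control against 1.93 and 2.80 in WT), as was DAL4, an allantoin permease (9.25 and 10.1 in control against 0.947 and 0.721 in WT). Some permeases went the other way: TAT1, for tyrosine, tryptophan and branched-chain amino acids, measured 3.57 and 3.16 in control and 232 and 213 in WT (log2 fold change -5.68 ± 0.24, 66.0-fold higher in WT), and PTR2, for di- and tripeptides, 3.49 and 4.48 in control against 189 and 192 in WT. Of 19 amino acid permeases, 7 were higher in control and 8 higher in WT (median -0.14, which changes sign with median-of-ratios scaling). DIP5, for acidic amino acids, measured 14.1 and 12.3 in control against 96.8 and 124 in WT and GNP1, for glutamine, 20.8 and 17.6 in control against 130 and 117 in WT (both chosen after their values were seen).

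Amino acid enzymes were not moved as 1 block. CHA1, the serine and threonine deaminase that is induced by these amino acids, measured 2.17 and 1.81 in control and 334 and 408 in WT (log2 fold change -6.95 ± 0.34, 186-fold higher in WT), and 796 and 820 in serine and 162 and 94.6 in CK2. Of 9 serine genes, 6 were higher in WT and 1 higher in control. Of 9 one-carbon genes, which load folate from serine and glycine, 5 were higher in WT and 1 in control (median -1.72), with MTD1 at 22.0 and 22.6 in control against 202 and 178 in WT and MIS1 at 34.8 and 32.7 in control against 136 and 120 in WT. In branched-chain synthesis BAT2, the cytosolic transaminase, measured 23.5 and 26.5 in control and 268 and 284 in WT, whereas BAT1, its mitochondrial counterpart, measured 293 and 301 in control against 118 and 105 in WT in the opposite order (BAT1 chosen after its values were seen). LEU9, an isopropylmalate synthase, was higher in WT (6.11 and 6.05 in control against 64.5 and 52.4 in WT). Of 10 aromatic synthesis genes 7 were higher in WT and none in control, of 7 histidine genes 4 in WT and HIS3 in control (2 to 3 calls in all when any 1 library was left out), of 9 arginine genes 5 in WT and ARG4 in control (408 and 385 in control against 110 and 92.4 in WT), and of 9 lysine genes 5 in control and 1 in WT. Aromatic breakdown went to the control side through ARO10 (284 and 256 in control against 42.1 and 36.7 in WT) and ARO9 (155 and 133 in control against 50.5 and 42.0 in WT), and the arginine breakdown gene CAR1 to the WT side (15.8 and 15.9 in control against 64.6 and 58.7 in WT).

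Zinc and vitamin genes that passed were mostly higher in control. Of 12 zinc and copper genes, 8 were higher in control and 1 higher in WT (median 1.26). ZRT1, the high-affinity zinc transporter, measured 1635 and 1532 in control and 32.8 and 33.9 in WT (log2 fold change 5.53 ± 0.15, 47.5-fold), and ZAP1, the zinc-sensing factor, 180 and 176 in control against 18.4 and 18.4 in WT. ADH4, an alcohol dehydrogenase of low-zinc cells, measured 1139 and 986 in control against 58.0 and 58.8 in WT, and ZPS1 232 and 188 in control against 7.56 and 5.83 in WT. The high-affinity copper transporter CTR1, named after its values were seen, measured 91.7 and 98.2 in control against 95.3 and 97.6 in WT and did not pass, and FRE7, a copper-regulated reductase gene, was the gene higher in WT (log2 fold change -1.93, also named after its values were seen). Of 18 thiamine and vitamin B6 genes 12 were higher in control and none in WT, led by THI4 (55.5 and 94.6 in control against 6.36 and 8.01 in WT) and THI20 (237 and 245 in control against 25.6 and 27.6 in WT). Of 12 biotin and NAD genes 8 were higher in control and none in WT, with BIO4 at 97.1 and 97.4 in control against 8.17 and 8.16 in WT and BIO3 at 64.6 and 62.1 in control against 7.12 and 8.70 in WT.

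Iron and phosphate genes did not move together. Of 19 iron genes, 3 were higher in control, 4 higher in WT and 12 did not pass (median 0.23), while 11 were called with median-of-ratios scaling and 14 with control and WT alone. HMX1, which breaks down heme, measured 209 and 239 in control and 5.68 and 8.57 in WT, and TIS11, which destroys mRNAs in low iron, 305 and 288 in control against 33.3 and 53.1 in WT, whereas the siderophore transporter ENB1 measured 1.48 and 2.48 in control against 23.5 and 26.7 in WT. TGCACCC, the Aft1 motif, lay in 12 of these promoters (63.2%) and in 1.46% of all. Of 17 phosphate genes, 5 were higher in control and 5 in WT, and the sign of their median changed with median-of-ratios scaling. GIT1 stood out at 229 and 220 in control and 2.69 and 3.64 in WT, and PHO3, an acid phosphatase whose reads may be shared with PHO5, was higher in WT (27.5 and 26.0 in control against 185 and 178 in WT). PHO84, the phosphate transporter, named after its values were seen, did not pass (135 and 131 in control against 246 and 262 in WT).

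Genes that build ribosomes were higher in WT with few exceptions. All 138 genes listed by symbol as cytosolic ribosomal protein genes were higher in WT, with log2 fold changes from -2.03 to -0.59 (median -1.15). Many of them are near-identical pairs whose reads may be shared. The symbol pattern also caught RPP1 (log2 fold change -1.04), an RNase P subunit gene and not a ribosomal protein gene, named after its values were seen. The count was 116 to 138 over the alternatives, lowest with a minimum of 2-fold. The genes of this list took 3.50% and 2.96% of the RPKM-times-length sum in control and 8.27% and 7.21% in WT. Of 53 ribosome biogenesis genes named UTP, NOP or RRP, 52 were higher in WT and none in control (median -1.62). GCGATGAG, the PAC motif of such genes, lay in 15 of 53 of their promoters (28.3%), in 3.56% of all and in 1 of 138 promoters of the ribosomal protein list (0.725%). NOP7 (chrVII:695017-695316, + strand, R64), required for the large subunit, is shown with the match in capitals, and ADE17 (chrXIII:509381-509680, - strand), of purine synthesis, with TGACTC, bound by Gcn4 and Bas1.
NOP7: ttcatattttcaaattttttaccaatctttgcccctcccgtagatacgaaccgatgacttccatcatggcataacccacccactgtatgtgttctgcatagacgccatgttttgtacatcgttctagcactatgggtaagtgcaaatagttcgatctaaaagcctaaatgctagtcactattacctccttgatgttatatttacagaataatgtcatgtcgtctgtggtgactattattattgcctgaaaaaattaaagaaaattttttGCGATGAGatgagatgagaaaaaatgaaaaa
ADE17: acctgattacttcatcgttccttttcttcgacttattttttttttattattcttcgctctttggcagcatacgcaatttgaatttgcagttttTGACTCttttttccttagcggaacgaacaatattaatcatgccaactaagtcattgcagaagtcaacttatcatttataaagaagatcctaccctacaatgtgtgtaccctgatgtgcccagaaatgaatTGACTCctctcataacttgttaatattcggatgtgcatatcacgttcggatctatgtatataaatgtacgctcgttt

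NOP7 measured 39.1 and 34.8 in control and 184 and 150 in WT (log2 fold change -2.14 ± 0.25, adjusted p = 1.02e-04). NOP14, of the small subunit, measured 13.1 and 14.9 in control against 76.4 and 62.8 in WT, and UTP11, of the same subunit, 19.9 and 19.2 in control against 100 and 79.6 in WT. Purine genes went with them: 12 of 13 were higher in WT and ADE16 was higher in control (263 and 261 in control against 171 and 176 in WT, named after its values were seen), with a median of -1.70. TGACTC lay in 9 of 13 purine promoters (69.2%) and in 8.55% of all. ADE17 measured 69.4 and 63.0 in control and 334 and 279 in WT, the reverse order of its paralogue ADE16. Pyrimidine genes split 7 to 3 for WT (median -0.90), with URA1, dihydroorotate dehydrogenase, at 85.4 and 78.0 in control against 673 and 589 in WT and URA10, the minor orotate phosphoribosyltransferase, at 449 and 475 in control against 59.0 and 63.4 in WT. Of 69 genes listed by symbol as mitochondrial ribosomal protein genes 53 were higher in WT and 1 higher in control (median -0.63), and 41 were called in all with median-of-ratios scaling. The 1 higher in control was MRP8 (log2 fold change 1.25, named after its values were seen). The symbol pattern caught MRP8, which is no longer taken for a mitochondrial ribosomal protein gene. Of 81 small nucleolar and nuclear RNA genes, 55 were higher in WT and none in control (median -0.65). Of 110 transfer RNA genes 39 (35.5%) were higher in WT, near the 38.6% of all genes tested, 3 were higher in control and 68 did not pass, with 25 to 27 called in all when either control library was left out.

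**Figure D3:**
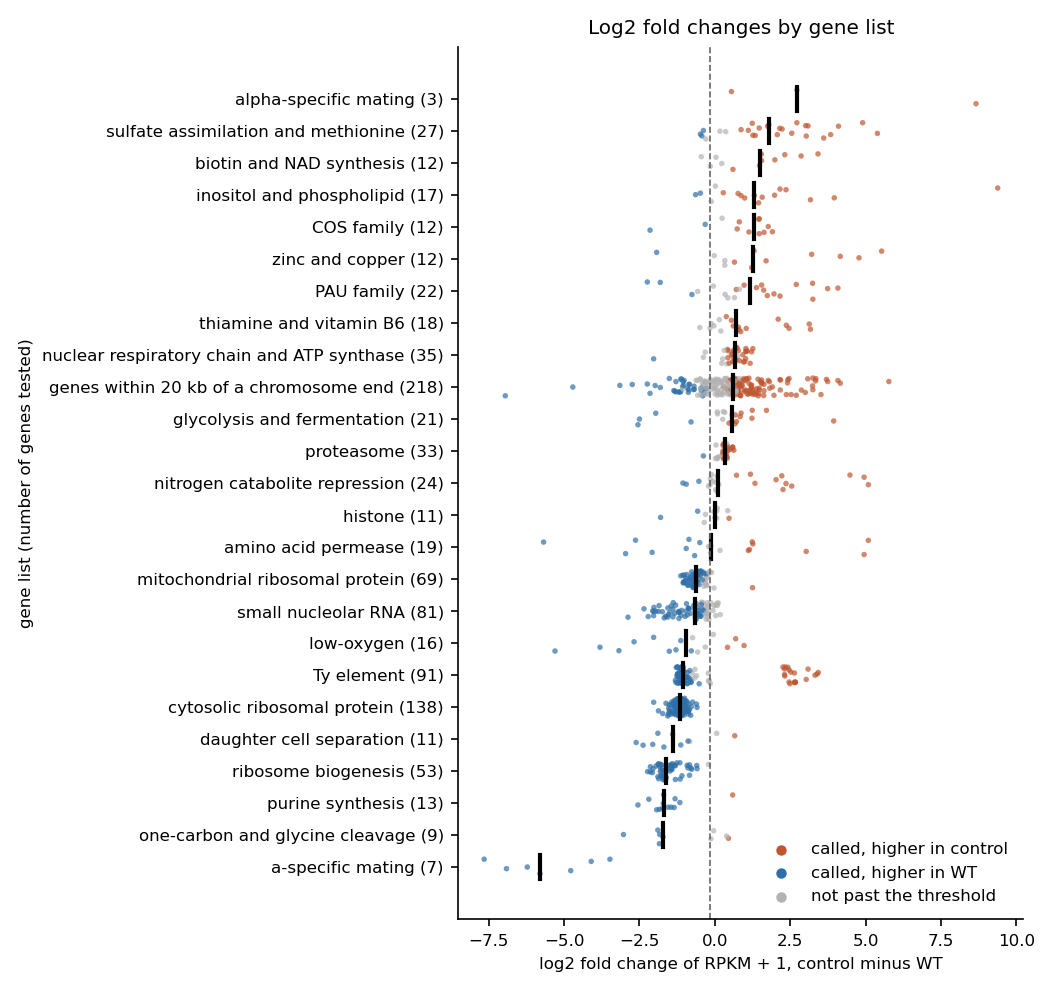
Log2 fold change (control minus WT, log2(RPKM + 1) scale) of the members of 25 gene lists, 1 point per gene, with each list's median as a bar and the median of all genes (-0.17) as a dashed line. Inositol, sulfate and zinc lists lie to the right of the line (medians 1.31, 1.79 and 1.26), and ribosomal protein, ribosome biogenesis and purine lists to the left (-1.15, -1.62 and -1.70).

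Of 21 glycolysis and fermentation genes, 11 were higher in control and 4 higher in WT (median 0.56). The 4 were the alcohol dehydrogenase genes of the list, ADH1, ADH2, ADH3 and ADH5 (the last named after its values were seen), whereas ADH4, described above, was higher in control. ADH1, the fermentative alcohol dehydrogenase, measured 990 and 841 in control and 5078 and 5270 in WT (log2 fold change -2.50 ± 0.18, adjusted p = 7.92e-06, 5.65-fold higher in WT), ADH3, the mitochondrial enzyme, 108 and 104 in control against 404 and 428 in WT, and ADH2 84.2 and 70.3 in control against 440 and 471 in WT. ADH1 and ADH2 are close in sequence, so part of the reads of one may be counted for the other. ENO1, an enolase, was higher in control (8280 and 7432 in control against 2251 and 2553 in WT, chosen after its values were seen), as was PDC6, a minor pyruvate decarboxylase (131 and 170 in control against 6.94 and 11.1 in WT). Of 14 gluconeogenesis and glyoxylate genes tested, 5 (35.7%) were higher in WT, near the 38.6% of all genes tested, and 1 (7.14%) in control. Of 7 galactose genes 4 were higher in WT and none in control, with GAL7 at 0.840 and 1.08 in control against 5.82 and 5.15 in WT. Of 17 hexose transport and sensing genes tested 7 were higher in control and 4 in WT, or 7 calls in all without control replicate 2, with HXT2 at 8.63 and 9.75 in control and 60.0 and 42.8 in WT and HXT5 at 159 and 232 in control against 71.2 and 94.4 in WT.

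Respiration genes were mostly higher in control, by small amounts. Of 35 nuclear respiratory chain and ATP synthase genes, 27 were higher in control and 1 higher in WT (median 0.66), and the total of 28 fell to 11 without control replicate 3, to 14 without WT replicate 3 and to 18 without WT replicate 2. CCAAT, the motif of the Hap complex, lay in 30 of these 35 promoters (85.7%) and in 43.8% of all. NDI1, the internal NADH dehydrogenase, measured 103 and 117 in control against 44.5 and 46.0 in WT, and COX5A, a cytochrome oxidase subunit, 265 and 277 in control against 117 and 115 in WT. The exception was CYC7, a cytochrome c isoform of low-oxygen cells (78.2 and 101 in control against 376 and 358 in WT, adjusted p = 0.0437), whose adjusted p was between 0.0991 and 0.156 when any 1 library was left out. Of 8 genes of the mitochondrial genome 3 were higher in control (median 1.31), among them COX2 (1481 and 1803 in control against 687 and 644 in WT) and COX3 (1935 and 2416 in control against 896 and 823 in WT), while COB, named after its values were seen, did not pass (2665 and 3253 in control against 931 and 720 in WT) although its groups did not overlap. The count of 3 was 6 with control and WT alone or without CK2 and H3T11A. Low-oxygen genes were mostly higher in WT, 9 of 16 against 3 (median -0.96). TIP1, a cell wall mannoprotein, measured 66.3 and 45.1 in control and 505 and 501 in WT, ANB1, an isoform of the translation factor eIF5A, 4.26 and 2.52 in control against 45.4 and 77.0 in WT, and AAC3, an ATP carrier, 0.819 and 0.922 in control against 8.80 and 13.7 in WT. In the tricarboxylic acid list, 9 of 25 were higher in control and 4 in WT, or 8 in all without control replicate 3.

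Stress and folding genes were mixed. KAR2, the HSP70 of the endoplasmic reticulum, measured 2880 and 2855 in control and 498 and 537 in WT (log2 fold change 2.47 ± 0.19, adjusted p = 9.48e-06), and LHS1, which works beside it, 176 and 169 in control against 48.8 and 48.1 in WT. Of the other HSP70 genes only SSE2 was higher in control (374 and 416 in control against 206 and 231 in WT, named after its values were seen, adjusted p up to 0.0789 over alternatives), and those called in the other direction included SSB1 at 349 and 301 in control against 673 and 581 in WT and SSZ1 at 140 and 128 in control against 293 and 277 in WT. In all 3 of 13 HSP70 genes (23.1%) were higher in control and 6 (46.2%) higher in WT. Over all genes tested these shares were 23.2% and 38.6%, and among the heat shock genes 22.2% and 33.3%, so neither list stood far from all genes. Of 18 heat shock genes 4 were higher in control and 6 in WT, with 5 to 6 called in all when either control library or WT replicate 3 was left out. HSP32, which has close copies in the genome, had the largest fold of these (45.1 and 47.5 in control against 4.60 and 5.22 in WT), and HSP60, the mitochondrial chaperonin, was higher in WT (440 and 420 in control against 898 and 1002 in WT). Of 21 general stress genes 8 were higher in control and 1 in WT, or 5 calls in all without control replicate 3 and 14 with control and WT alone, and GRE2 measured 298 and 328 in control against 35.2 and 33.4 in WT. AGGGG, the motif of the stress factors Msn2 and Msn4, lay in 16 of these 21 promoters (76.2%) and in 23.7% of all. Of 17 trehalose and glycogen genes 3 were called, a count that depended on the setting, being 7 with median-of-ratios scaling and 12 with control and WT alone or without CK2 and H3T11A. Of 24 antioxidant genes, 10 were higher in control and 3 in WT, with TSA1, a peroxiredoxin, at 1712 and 1741 in control against 436 and 439 in WT. Proteasome genes were slightly higher in control, 24 of 33 with 1 higher in WT (median 0.33), and the total of 25 was 14 to 15 without control replicate 3, WT replicate 2 or WT replicate 3. Autophagy genes gave 14 higher in control, 3 higher in WT and 20 not past the threshold, with ATG8, which coats the autophagosome, at 254 and 250 in control against 49.7 and 62.2 in WT. Of 26 ergosterol genes, 11 were higher in control and 6 in WT, with ERG20, farnesyl diphosphate synthase, at 694 and 649 in control against 200 and 192 in WT.

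The cell surface and the cell cycle separated the groups as well. Of 25 cell wall genes, 15 were higher in control and 1 in WT (median 0.55), with PIR3, a wall mannoprotein, at 750 and 860 in control against 97.4 and 118 in WT and YPS1, a surface protease, at 531 and 567 in control against 97.0 and 98.1 in WT. CWP1, another wall mannoprotein, was higher in WT (35.8 and 29.3 in control against 95.5 and 95.5 in WT, named after its values were seen). Daughter cell separation genes were higher in WT in 8 of 11 (median -1.40). AMN1, which keeps daughters attached in some strains, measured 36.5 and 33.5 in control and 227 and 210 in WT (log2 fold change -2.61 ± 0.08), SCW11, a wall glucanase, 45.1 and 37.4 in control against 241 and 196 in WT, and DSE1 82.4 and 69.9 in control against 343 and 296 in WT. Cyclin and inhibitor genes were higher in WT in 9 of 16, with the S-phase cyclin CLB6 at 1.69 and 1.04 in control against 6.33 and 8.29 in WT and the mitotic cyclin CLB1 at 34.0 and 29.2 in control against 93.9 and 82.2 in WT (CLB1 named after its values were seen). Among pumps and genes that vary between strains, 9 of 20 were higher in WT and 2 in control. PDR5, a drug pump, measured 111 and 108 in control against 282 and 329 in WT, and AQY2, an aquaporin gene broken in some strains, 86.1 and 88.6 in control against 18.8 and 20.5 in WT.

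Repeated and end-of-chromosome genes differed by family. Of 91 Ty retrotransposon genes tested, all 20 of Ty2 were higher in control (log2 fold changes of 2.26 to 3.43, median 2.58), 56 of 61 Ty1 genes and all 5 Ty4 genes were higher in WT and none of these in control. Copies of 1 family are near-identical, so reads may not be assigned to the right copy, and members are not independent. Of 218 genes tested within 20 kb of a chromosome end, 106 (48.6%) were higher in control and 37 (17.0%) higher in WT, with a median of 0.59. The COS family, membrane protein genes near chromosome ends, gave 9 of 12 higher in control (median 1.29), and COS12, at the floor in control, was the exception with the largest difference (0 and 0 in control against 4.53 and 2.55 in WT). The PAU family, seripauperin cell wall genes, gave 13 of 22 higher in control (median 1.17), with PAU1 and PAU14, whose family members are also near-identical, (22.2 and 20.2 in control against 0.905 and 0.446 in WT) among them. Over the nuclear chromosomes the median log2 fold change ran from -0.24 (VIII) to -0.04 (VI).

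Casein kinase 2 and histone genes mostly did not pass. Of 4 casein kinase 2 genes, CKA1, a catalytic subunit, was higher in WT (41.5 and 40.9 in control against 66.9 and 57.5 in WT, log2 fold change -0.58 ± 0.09), and the other 3 did not pass (2 genes were called with control and WT alone or with median-of-ratios scaling), and the sign of the list's median changed with median-of-ratios scaling. Of 11 histone genes 8 did not pass (10 did not without control replicate 3 or WT replicate 2, where 1 was called, while 6 were called with control and WT alone), HTB2, an H2B gene, was higher in WT (169 and 114 in control against 481 and 491 in WT, log2 fold change -1.80 ± 0.21), HHF1, an H4 gene, was higher in WT (386 and 353 in control against 563 and 535 in WT, adjusted p = 0.00839, over 0.05 in 2 of the 4 leave-one-out fits), and HHT2, an H3 gene, was higher in control (1491 and 1375 in control against 1052 and 1009 in WT, adjusted p = 0.0211, 0.0525 to 0.109 with any 1 library left out). Of the 8 silencing genes SIR2, the deacetylase, was higher in WT (18.8 and 20.5 in control and 30.7 and 30.1 in WT), and HST2 (90.6 and 93.9 in control against 59.0 and 53.7 in WT) and SIR3 (27.2 and 27.9 in control against 18.5 and 21.4 in WT) were higher in control, and all 3 passed in every leave-one-out fit. HST3 (21.5 and 18.2 in control against 28.8 and 26.6 in WT) and HST4 (13.5 and 12.6 in control against 17.9 and 20.2 in WT) and SIR4 (17.7 and 19.9 in control against 22.4 and 24.8 in WT) were lower in control at adjusted p of 0.00918, 0.00925 and 0.0152, and each passed 0.05 in only 2 of the 4 leave-one-out fits. Over alternatives the p of SIR4 reached 0.175, that of HST3 0.0765 and that of HST4 0.0666. SIR1 and HST1 did not pass. The copies of the histone genes are near-identical, so their values are uncertain.

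Most genes called between the references differed in the same direction between the partner groups, which share no libraries with them. Serine and CK2 also differ by the serine treatment and the CK2 mutation, and the parts of these were not tested. CKA1 measured 43.3 and 42.5 in serine and 0.0640 and 0.0680 in CK2. Among the 3970 genes called, 3600 (90.7%) had the same sign of the log2 fold change in serine minus CK2, and among the 1580 with a difference of 2-fold or more 1518 (96.1%) did. Over all 6422 genes 5232 (81.5%) did, with Pearson r = 0.75 and Spearman rho = 0.76 across genes, which are not independent replicates. The exceptions included genes named above: CHA1 measured 796 and 820 in serine and 162 and 94.6 in CK2, higher in serine, whereas it was higher in WT than in control. Among the mating genes, STE3 (39.2 and 43.4 in serine, 46.4 and 52.2 in CK2) had a log2 difference of -0.25 for serine minus CK2 against 2.72 for control minus WT, and SAG1 one of -0.24 against 0.55, so both changed sign. MFA2 (2.03 and 4.15 in serine, 4.88 and 3.91 in CK2) kept its sign, at -0.44 against -7.65. The median over the 7 a-specific genes was -0.44 against -5.80, and HMRA1 stood at 0.15 against -7.58. On chromosome V the median difference (log2 scale) was -1.09 for serine minus CK2 and -0.15 for control minus WT, and the part of this in the counts was not tested. YBL574 lay nearer to WT in 2414 of the called genes (60.8%) and in 3677 of all genes tested (57.3%). Of the 536 genes 2-fold or more higher in control it lay nearer to WT in 496 (92.5%), and of the 1044 higher in WT it lay nearer to WT in 590 (56.5%) and nearer to control in 454 (43.5%).

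**Figure D4:**
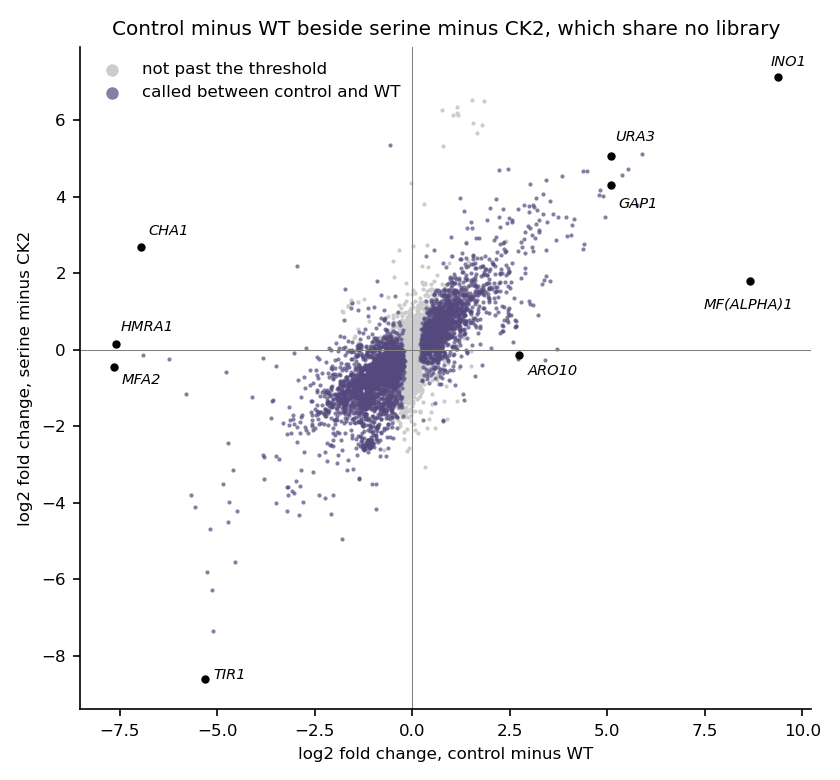
Log2 fold change of control minus WT (x axis) against serine minus CK2 (y axis) for 6422 genes, 1 point per gene, both on the log2(RPKM + 1) scale. 5232 genes lie in the 2 quadrants of equal sign, and MFA2 and CHA1 lie far from the diagonal.

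INO1 measured 7698 and 7583 in control and 3874 and 4527 in serine, against 11.6 and 9.45 in WT, 29.0 and 29.0 in CK2 and 17.1 and 17.2 in YBL574. ZRT1 measured 1452 and 1437 in serine, 51.7 and 55.4 in CK2 and 32.1 and 23.9 in YBL574. MET17 measured 949 and 1069 in serine, 41.8 and 43.0 in CK2 and 195 and 109 in YBL574. GAP1 measured 932 and 1060 in serine, 44.4 and 54.4 in CK2 and a mean of 15.1 in YBL574. In these 4 genes serine lay with control, and CK2 and YBL574 with WT. ADH1 showed the mirror image, with 990 and 1269 in serine, 4666 and 4627 in CK2 and 5560 and 4646 in YBL574. HIS3 and URA3 departed from it, since CK2 lay with WT and YBL574 did not.

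**Figure D5:**
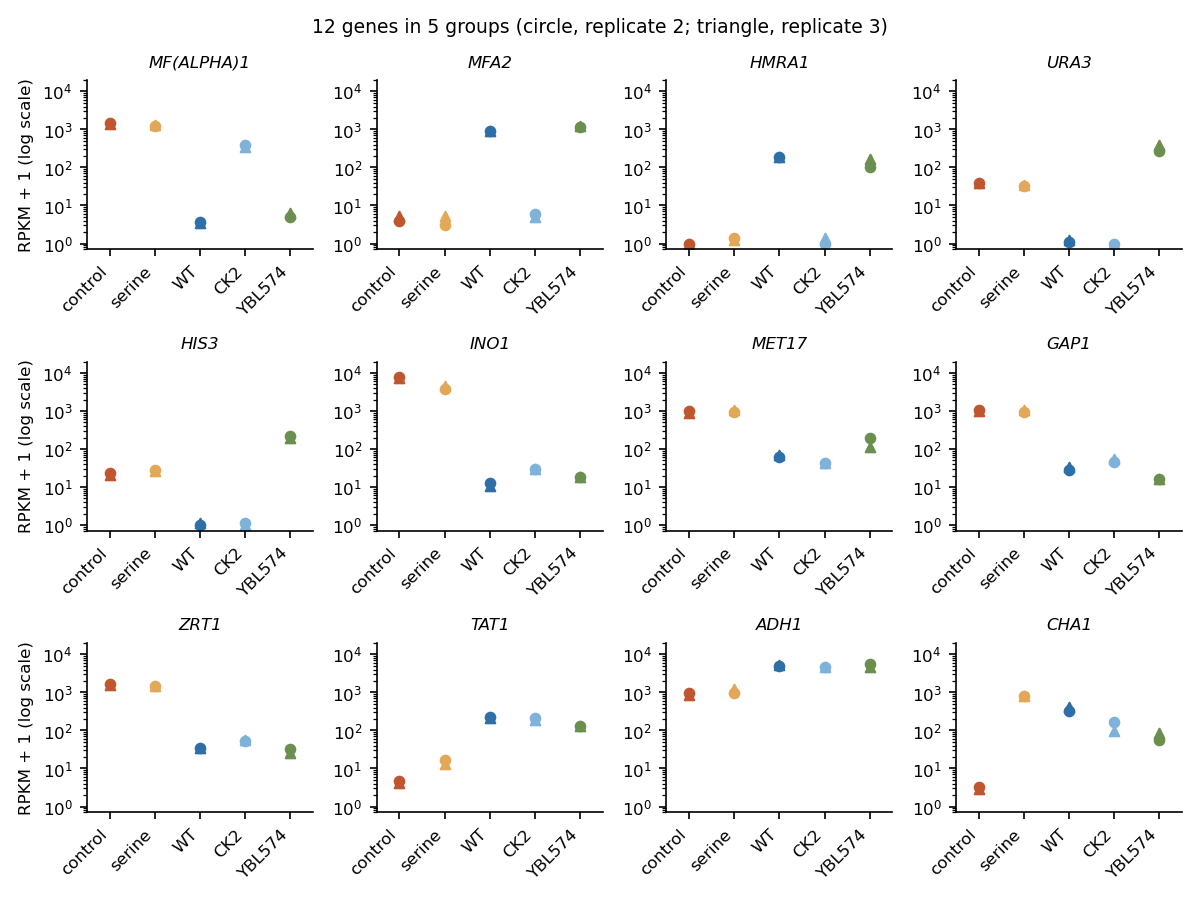
RPKM of 12 genes in control, serine, WT, CK2 and YBL574, 1 point per biological replicate, on a log axis of RPKM + 1. INO1, ZRT1, MET17 and GAP1 are high in control and serine only, whereas MF(ALPHA)1 is high in control, serine and CK2.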

How the data were processed

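RNA sequencing values of 2 control and 2 WT libraries were taken from 1 table of 7125 genes. The authors deposited RPKM values, with 1 column a library. Per the labels, the submitters' processing notes name CASAVA 1.8.2, TopHat2 2.0.13, edgeR and the sacCer3 build, with no role or order, and the use of strand and the gene annotation were not given in the sources used here. Reads of near-identical genes, overlapping genes and antisense genes may therefore be split or shared. Gene names, coordinates and promoters were taken from the R64 reference (the same assembly as sacCer3), which held 6162 of the identifiers (86.5%), 5971 of those tested.

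Values were transformed as log2(RPKM + 1), and limma 3.58.1 in R 4.3.3 (lmFit, eBayes with trend) was fitted over all 6 groups and 12 biological replicates, technical libraries being averaged on the RPKM scale (6 residual degrees of freedom). The contrast was control minus WT, two-sided, with Benjamini-Hochberg adjustment over 6422 genes and a threshold of 0.05. Unadjusted, 4234 genes had a p under 0.05. Read totals were fitted so that RPKM times length stepped by whole reads, and 97.7% to 98.6% of low values lay within 0.1 of a whole number. The procedure was tested on simulated data. The values are not counts, so no count model was used.

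Genes named are the 15 largest and 15 smallest log2 fold changes whose groups do not overlap, the genes at the floor, all members of 7 lists (markers, a- and alpha-specific, histone, casein kinase 2, SIR and HST, and SESAME genes) and up to 4 called members, by size, of every other list, and other names are said to be chosen after their values were seen. The 57 lists, the members and the rule were chosen with earlier results of these data known. Alternatives varied the groups fitted, replicate block, pseudocount, filter, scaling, variance trend, threshold, floor and libraries left out. Motifs were searched on both strands 400 to 101 bases before the start codon of 5822 genes.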

Additional observations from a re-analysis of the deposited data

How the results depend on the processing

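The count of 3970 genes called ran from 3147 to 3269 when 1 of the 4 libraries was left out (1156 to 1207 higher in control and 1976 to 2062 higher in WT), was 4599 with the control and WT groups alone, and was 4671 with a replicate block. A group left with 1 library was assumed to vary like the others. The replicate numbers did not pair the samples, since only 2 pairs exist and the deviations of same-numbered control and WT libraries correlated weakly (Pearson r = 0.162, Spearman rho = 0.152). A 2-fold minimum left 1580 genes, 536 higher in control and 1044 higher in WT, by construction. Other settings gave 3011 (adjusted p of 0.01) to 4662 genes (without CK2 and H3T11A). Median-of-ratios scaling gave 1885 higher in control and 1969 higher in WT. A floor of 1 RPKM gave 20 genes in place of 14. Genes of the same sign in the partner groups numbered 2883 to 3007 with a library left out. Of 246 named genes 232 to 236 kept their call with a library left out, and none reversed under any alternative. The medians of 7 lists (branched-chain, permease, phosphate, heat shock, histone, casein kinase 2 and drug or strain-variable genes) changed sign with median-of-ratios scaling. The causes were not tested. Depth limits genes near 3 reads, about 0.25 RPKM in a gene of 1 kb.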

Other observations

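NDJ1, YET2, PAU11 and YPS5 were chosen after their values were seen. NDJ1, a telomere protein of meiosis, measured 0.873 and 1.61 in control and 51.2 and 48.6 in WT, with 2.09 and 2.83 in serine, 137 and 185 in CK2 and 13.1 and 18.3 in YBL574. YET2, an endoplasmic reticulum membrane protein gene, measured 181 and 201 in control and 17.5 and 15.6 in WT, with 220 and 223 in serine, 20.1 and 21.9 in CK2 and 11.3 and 13.6 in YBL574. Beside COS12, at the left end of chromosome VII, the gene PAU11 measured 9.26 and 9.39 in control and 3.40 and 1.56 in WT, and YPS5 6.25 and 7.70 in control against 15.5 and 15.3 in WT.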
